A study of Mus musculus with 12 samples.

Results

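The genes described are 9 upstream activators of Sry, taken by symbol from the 24411 gene symbols listed for each library. They are Gadd45g and Map3k4, Gata4 and its cofactor gene Zfpm2, Six4, Cbx2, Cited2, and the receptor genes Igf1r and Insr. They are picked by name with no expression value in the rule, but earlier results of these data were known when they were picked. All 9 passed the filter on low values that left 16133 genes for testing. The 12 libraries were made from RNA of NR5A1(+) cells, the somatic cells of the fetal mouse gonad that express the nuclear receptor NR5A1. All 5 groups carry the genotype Nr5a1-hCD271, whose name joins Nr5a1 to the human cell-surface protein CD271. Control XY (n = 3), Dfo XY (n = 3) and control XX (n = 2) libraries came from gonads explanted at E10.8, with the aorta, mesonephros and mesenchyme attached, and cultured for 19.2 h. The Dfo group had 150 µM deferoxamine, an iron chelator, in the medium. The other groups are XY (n = 2) and XX (n = 2) gonads at E11.5, titled WT. The labels attach the culture protocol to the E11.5 groups too and so do not show how E11.5 cells were obtained. The labels do not say whether replicates are separate embryos, so p-values here measure only the spread between these libraries.

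Sry, on the Y chromosome, starts testis development in the supporting cells of the gonad during a short window of fetal life. Several routes are known to be needed for its timely expression. GADD45G binds and activates the kinase MAP3K4, which signals through p38 MAP kinase towards GATA4. GATA4 works with its cofactor ZFPM2, also called FOG2. SIX4, a homeodomain factor, acts on Zfpm2 and Nr5a1. CBX2, a Polycomb subunit, and CITED2, a partner of the coactivators CBP and p300, are both needed for normal Sry levels. Signalling through the insulin and IGF1 receptors is required in the XY gonad before Sry peaks. Iron enters as the cofactor of dioxygenases, among them the histone demethylase KDM3A, which acts at Sry, and the prolyl hydroxylases that mark HIF proteins for degradation.

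In the cultured XY gonad, Dfo went with higher Cited2, Igf1r and Insr and lower Gadd45g and Cbx2. On the scale of TPM + 1, Cited2 was 2.21-fold higher, Insr 1.52-fold higher and Gadd45g 1.53-fold lower. Map3k4, Gata4, Zfpm2 and Six4 did not pass the test. Which genes passed depended on the setting. With replicates 1 and 2 averaged in the cultured XY groups, only Gadd45g passed. Cbx2 did not pass under any of the other scalings of TPM. Without the Dfo libraries that held Xist RNA, the Cited2 difference was smaller and those of Igf1r and Insr were larger. Between cultured control XY and XX, 5 of the 9 were lower in XY, but that count depended on how TPM was scaled. In that comparison 25.2% of all genes passed, 479 higher and 3585 lower in XY. At E11.5 none of the 9 passed the test between the sexes, where 2.29% of all genes did.

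Several features of the libraries bear on these values. TPM is a share of the library, and the RNA of RNase P, Rpph1, took 15.3% to 20.3% of it in control XY and 19.5% to 23.6% in Dfo XY, beside 6.96% to 7.20% in cultured control XX. It took 8.57% to 12.2% in the E11.5 libraries. Dfo XY replicates 1 and 2 held 13.6 and 24.6 TPM of Xist, the RNA of X inactivation, where the other 6 XY libraries had at most 0.90 TPM and the XX libraries at least 124 TPM. Replicates 1 and 2 lay close together in control XY and in Dfo XY, with a median absolute log2 difference of 0.06 and 0.07 over 3051 well-expressed genes. The same measure was 0.19 to 0.20 against replicate 3. The Dfo differences of the 9 genes, and of the called genes named in the text, are therefore also given without both Xist-holding libraries, which leaves replicate 3 as the only Dfo library and assumes that it varies like the other groups, and with replicates 1 and 2 averaged. The summed TPM of 7 markers of gonadal somatic cells, Gata4 among them, was 822 to 1023 in control XY, 618 to 699 in Dfo XY and 1566 to 1631 in cultured XX, and 4 of the 7 were lower with Dfo. Of 8 markers each for endothelial cells, macrophages and erythroid cells, none was called with Dfo. Among 8 mesenchymal markers 3 were lower, among 8 mesonephric markers 2 were lower, and among 8 germ cell markers 1 was lower. Of 8 markers of neural crest and neurons, 1 was higher and 2 were lower. Over all genes tested, 15.5% were called with Dfo, 803 higher and 1695 lower, a split that changed with the scaling. The macrophage gene Tyrobp was listed at 0 in cultured XX and the globin gene Hbb-bs in all 3 cultured groups. The part of these cells in the results below was not tested, and in bulk RNA fewer cells of a type and less RNA per cell cannot be told apart.

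The comparison of Dfo XY with control XY asked which genes of the route to Sry changed when iron was chelated. Differences are of log2(TPM + 1), fitted by limma over all genes, and a gene was called at a Benjamini-Hochberg adjusted p below 0.05. Of the 9 genes, 3 were higher and 2 were lower. Over all genes tested, 15.5% were called, 803 higher and 1695 lower, with a median log2 difference of -0.17, beside a median of -0.08 over the 9. The split of all genes was 1520 higher and 1024 lower with median-of-ratios scaling, which moved their median to -0.05. It was 1202 and 1236 when the 50 most abundant genes were left out, and 1291 and 1193 with quantile normalization. Sry itself, the gene these routes lead to, had 19.5, 16.4 and 45.6 TPM in control XY and 4.23, 2.40 and 4.18 TPM in Dfo XY. Whether Dfo and control libraries overlapped is given below for single genes. The share of all genes without such overlap was not counted.

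**Figure D1:**
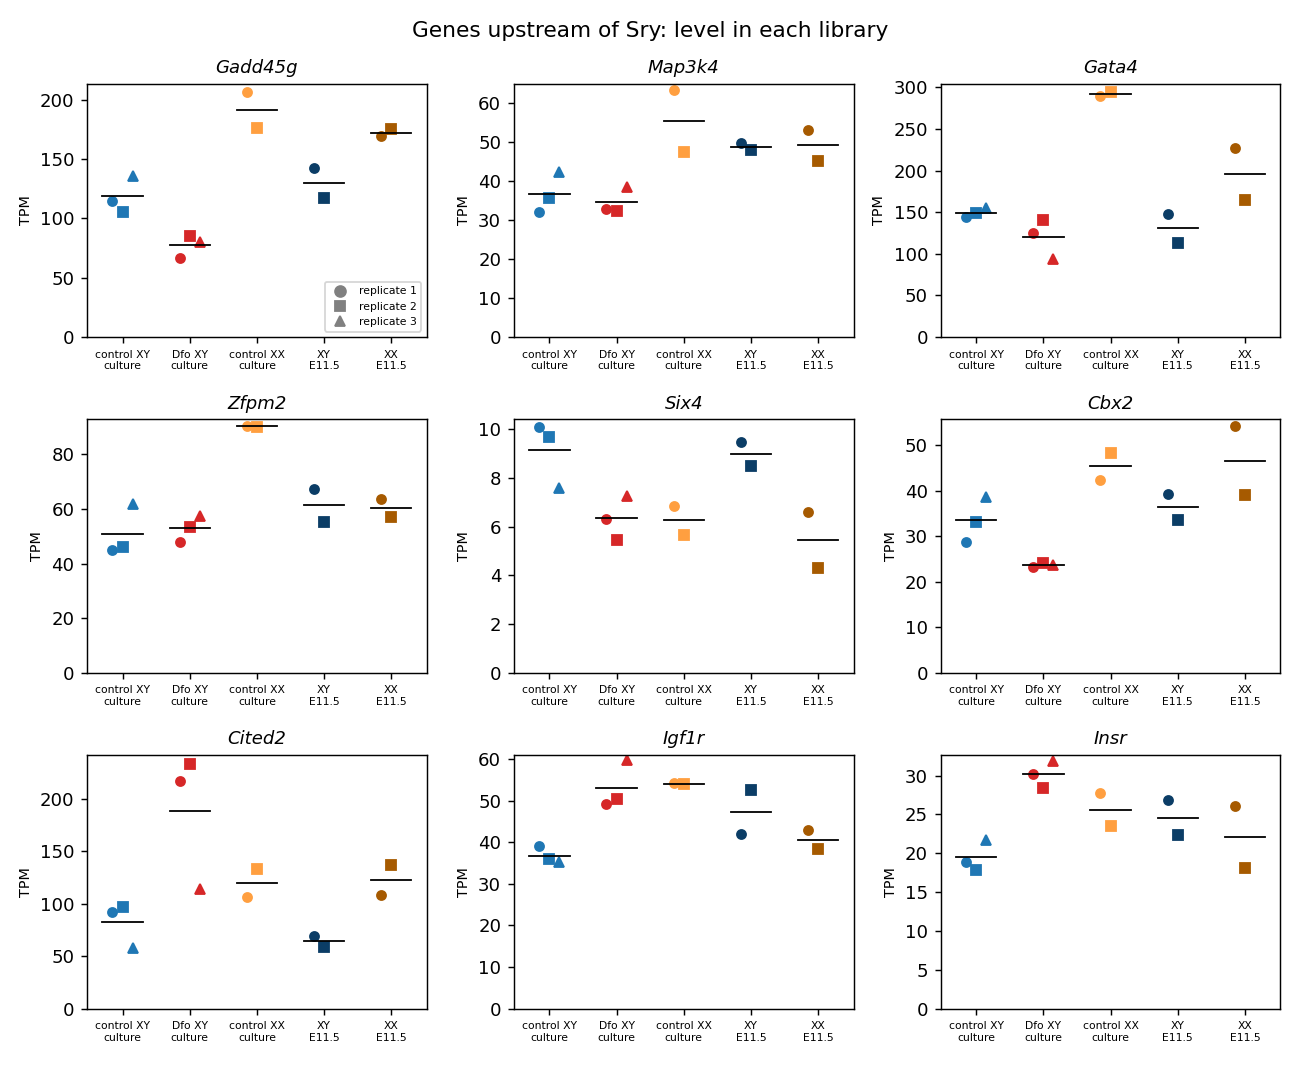
Level of each of the 9 genes in TPM (vertical axes, starting at 0) in every library, by group; symbols mark the replicate number and black lines the group mean. Cited2, Igf1r and Insr stand higher and Gadd45g and Cbx2 lower in the 3 Dfo XY libraries than in all 3 control XY libraries. Gata4 and Six4, which were not called, also stand lower in all of them. The share of all genes without overlap between these groups was not counted. Gata4 and Zfpm2 stand highest in cultured control XX.

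Promoter sequence is shown first for 3 of the genes that changed, because they differ in direction while sharing a short motif. The motif does not set them apart: it was also in the windows of Map3k4 and Six4, which were not called. Upstream windows of 250 bases were found by symbol for 5 of the 9 genes (Gadd45g, Map3k4, Six4, Cited2 and Igf1r) in the RefSeq promoter table for GRCm38.p6. Gata4, Zfpm2, Cbx2 and Insr were not matched. The motif searched on both strands was the core of the hypoxia response element, ACGTG or GCGTG. It stands in capitals below, read in the direction of the gene, so that a match on the opposite strand appears as CACGT or CACGC. Cited2 lies at chr10:17722978-17723227 on the plus strand, Gadd45g at chr13:51846425-51846674 on the plus strand and Igf1r at chr7:67952007-67952256 on the plus strand, each window ending at the base before the RefSeq start site.
Cited2: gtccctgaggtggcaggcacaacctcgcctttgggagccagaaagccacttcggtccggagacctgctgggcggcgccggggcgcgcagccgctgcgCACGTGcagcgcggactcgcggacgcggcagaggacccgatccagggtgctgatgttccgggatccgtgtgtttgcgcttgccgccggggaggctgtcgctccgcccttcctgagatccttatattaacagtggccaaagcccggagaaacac
Gadd45g: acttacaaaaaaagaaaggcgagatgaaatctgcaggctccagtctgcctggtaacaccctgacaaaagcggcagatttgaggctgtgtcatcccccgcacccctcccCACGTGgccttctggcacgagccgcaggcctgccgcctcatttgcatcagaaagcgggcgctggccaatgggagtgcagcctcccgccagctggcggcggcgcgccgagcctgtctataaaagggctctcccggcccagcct
Igf1r: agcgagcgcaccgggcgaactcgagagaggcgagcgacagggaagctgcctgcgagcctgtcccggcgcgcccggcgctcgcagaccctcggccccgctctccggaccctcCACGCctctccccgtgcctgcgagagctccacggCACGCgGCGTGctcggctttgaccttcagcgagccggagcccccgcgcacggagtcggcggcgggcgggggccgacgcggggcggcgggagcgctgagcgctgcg

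Cited2, which rose, and Gadd45g, which fell, both held the palindrome CACGTG, in which ACGTG is read on either strand. It lay at -153 to -148 from the start site in Cited2 and at -142 to -137 in Gadd45g. Of all 32851 promoter windows of that length in the table, 6.02% held CACGTG and 38.6% held at least 1 core motif. Igf1r held 3 core motifs, as at least 3 were held by 6.58% of all windows, in a window of 77.6% GC against a median of 52.4%. The Map3k4 window held 1, both Six4 windows held at least 1, and the Sry window held none. The GATA motif, searched on both strands as GATAA or GATAG with A or T before it, was in 26.5% of all windows and, among these genes, only in 1 of the 2 Six4 windows. These are matches of letters and no measure of binding.

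Gadd45g (ENSMUSG00000021453.2, chr13:51846678-51848468, mm10, plus strand) encodes the activator of MAP3K4. It had 115, 106 and 136 TPM in control XY replicates 1, 2 and 3, and 66.9, 85.4 and 80.1 TPM in Dfo XY. All 3 Dfo libraries lay below all 3 controls. The log2 difference was -0.61 ± 0.13 (SE; limma, adjusted p = 0.00628), and it was called without each of the 12 libraries in turn (-0.69 to -0.51). Between libraries of the same number the log2 difference was -0.77, -0.30 and -0.76. Without both Xist-holding libraries it was -0.56 with an adjusted p of 0.0981, and with replicates 1 and 2 averaged it was -0.64 with an adjusted p of 0.0282. It was lowest in Dfo XY among the 5 groups and highest in cultured XX, at 191.7 ± 21.4 TPM (SD, n = 2).

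Its paralogs went the other way. Gadd45a had 24.1, 17.8 and 27.8 TPM in control XY and 54.9, 58.7 and 48.6 TPM in Dfo XY. Gadd45b had 6.13, 8.26 and 5.45 TPM in control XY and 29.3, 28.1 and 23.5 TPM in Dfo XY. Both encode stress-inducible proteins that bind the same family of kinases, and neither had Dfo and control libraries that overlapped. Both were named for their calls in this comparison, and the share of all genes without overlap was not counted. The log2 differences were 1.20 ± 0.16 (adjusted p = 0.000430) and 1.89 ± 0.30 (adjusted p = 0.00140). Without the Xist-holding libraries Gadd45b was 1.70 higher with an adjusted p of 0.0798, and Gadd45a was called at 1.06 (adjusted p = 0.0403). With replicates 1 and 2 averaged both were called, Gadd45a at 1.09 (adjusted p = 0.0100) and Gadd45b at 1.89 (adjusted p = 0.0220). In control XY, Gadd45g made up most of the family: the log2 ratio of Gadd45g to the sum of Gadd45a and Gadd45b was 1.89, 1.97 and 2.002. In Dfo XY that ratio was -0.33, -0.02 and 0.15, so that Gadd45g and the other two together were about level. The difference in the ratio was -2.02, with an exact two-sided permutation p of 0.1, the smallest that 3 against 3 libraries allow. It was -2.13 to -1.89 without each of the 6 libraries in turn, -1.81 without both Xist-holding libraries and -1.97 with replicates 1 and 2 averaged. A factor that multiplies every gene of a library leaves such a ratio as it is, apart from the pseudocount of 1. Quantile normalization does not, and gave -2.10. The highest ratios were in cultured XX, 3.44 and 3.35, and E11.5 XX had 2.63 in both libraries beside 2.29 and 1.52 in E11.5 XY.

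**Figure D2:**
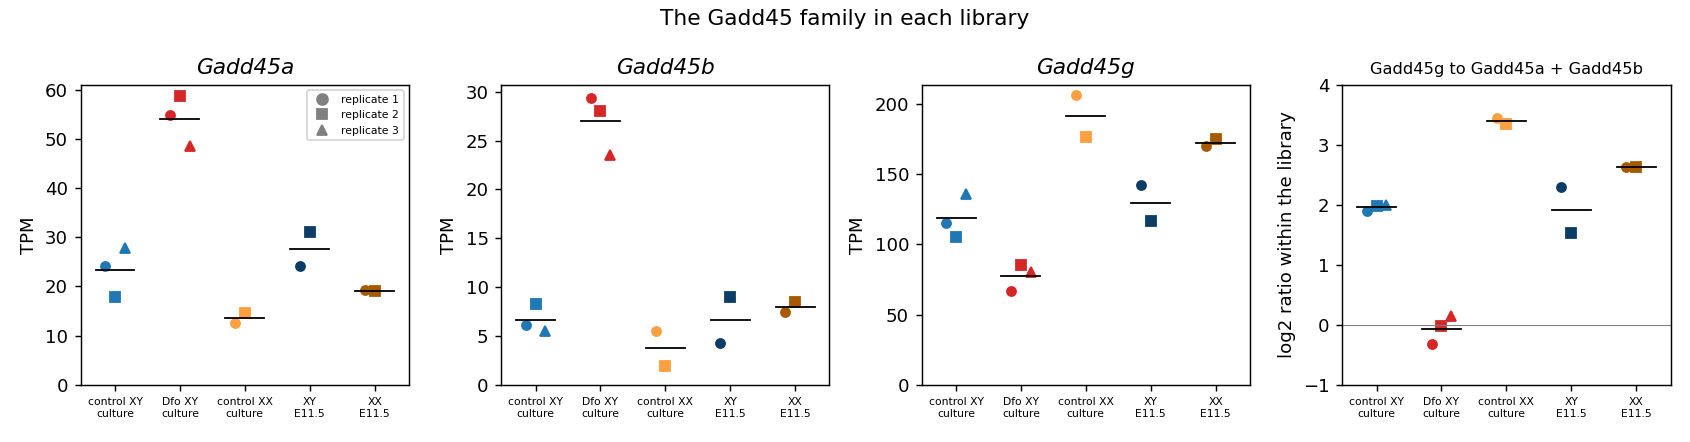
Levels of Gadd45a, Gadd45b and Gadd45g in TPM (first 3 panels, axes from 0) and the log2 ratio of Gadd45g to the sum of the other two (last panel) in every library; symbols mark the replicate number and black lines the group mean. The ratio lies between 1.89 and 2.002 in the 3 control XY libraries and between -0.33 and 0.15 in the 3 Dfo XY libraries.

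Map3k4 (ENSMUSG00000014426.9, chr17:12227621-12318796, minus strand), the kinase gene, had 32.1, 35.7 and 42.2 TPM in control XY and 32.7, 32.3 and 38.5 TPM in Dfo XY. The groups overlapped, and the log2 difference of -0.08 (95% interval -0.38 to 0.22; adjusted p = 0.746) changed sign under 2 other scalings. It was 0.076 without the Xist-holding libraries and -0.095 with replicates 1 and 2 averaged, and was called in neither. Of 13 other genes of the GADD45 to p38 route, 3 were higher and 2 lower with Dfo, and their median log2 difference was -0.18. Map3k1, which encodes another kinase of the same tier, was 0.79 ± 0.10 higher, from 61.0, 58.3 and 67.0 TPM to 109.4, 118 and 98.1 TPM (adjusted p = 0.000241). Map3k1 stayed called without the Xist-holding libraries (0.65, adjusted p = 0.0253) and with replicates 1 and 2 averaged (0.73, adjusted p = 0.0105). Map2k6, a kinase that phosphorylates p38, was 0.71 ± 0.22 lower on the log2 scale (adjusted p = 0.0428). That call ended under 3 other scalings and without control XY replicate 1 or 3, Dfo XY replicate 1 or 2, or any cultured XX or E11.5 XY library. With replicates 1 and 2 averaged its difference was -0.67 (adjusted p = 0.187). Without the Xist-holding libraries it was -0.24, and 2 genes of the list were higher and none was lower.

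Gata4 (ENSMUSG00000021944.15, chr14:63198922-63271692, minus strand), the zinc finger factor needed to form the genital ridge, had the highest mean of the 9 genes, 170.5 TPM over the 12 libraries. It had 144, 149 and 155 TPM in control XY and 125, 141 and 93.7 TPM in Dfo XY. All 3 Dfo libraries lay below the controls, with replicate 3 the farthest, but the log2 difference of -0.34 ± 0.16 did not pass the test (adjusted p = 0.173). It was -0.67 without the Xist-holding libraries (adjusted p = 0.0759) and -0.43 with replicates 1 and 2 averaged (adjusted p = 0.259). Zfpm2 (ENSMUSG00000022306.9, chr15:40655035-41104592, plus strand) had 44.9, 46.0 and 61.7 TPM in control XY and 47.8, 53.3 and 57.4 TPM in Dfo XY. These groups overlapped, with a log2 difference of 0.07 (95% interval -0.22 to 0.35; adjusted p = 0.787). In the same 2 settings Zfpm2 had 0.19 and 0.025 and was not called. The log2 ratio of Gata4 to Zfpm2 was 1.55 ± 0.21 (SD, n = 3) in control XY and 1.15 ± 0.39 (SD, n = 3) in Dfo XY, a difference of -0.40 (exact two-sided permutation p = 0.3). Without the Xist-holding libraries it was -0.86, a value that rests on Dfo XY replicate 3 alone, and with replicates 1 and 2 averaged it was -0.46.

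Of 8 other genes of the GATA and FOG families and their partners, 1 was called with Dfo. Gata6, which encodes the GATA factor that shares gonadal functions with GATA4, had 68.5, 71.9 and 82.8 TPM in control XY and 112, 124 and 103 TPM in Dfo XY. It was 0.60 ± 0.11 higher on the log2 scale (adjusted p = 0.00398), while Gata4 was -0.34. The Gata6 call ended without the Xist-holding libraries (0.47, adjusted p = 0.139), where 1 other gene of the list was lower, and with replicates 1 and 2 averaged (0.53, adjusted p = 0.0670). The median log2 difference of the 8 was -0.28.

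Six4 (ENSMUSG00000034460.9, chr12:73099609-73113456, minus strand) had the lowest mean of the 9 genes, 7.32 TPM. It had 10.1, 9.71 and 7.58 TPM in control XY and 6.34, 5.45 and 7.27 TPM in Dfo XY. The groups did not overlap, although control replicate 3 and Dfo replicate 3 nearly met, and the log2 difference of -0.46 ± 0.21 did not pass the test (adjusted p = 0.163). It was -0.28 without the Xist-holding libraries and -0.36 with replicates 1 and 2 averaged, and was called in neither.

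Among 10 other genes of the families of Six4, Eya1 and Dach1, 8 were tested and 3 were lower with Dfo. The EYA proteins are cofactors that factors of the SIX4 family need to activate their targets. Eya1 had 15.9, 19.7 and 9.56 TPM in control XY and 5.05, 5.89 and 1.83 TPM in Dfo XY, a log2 difference of -1.66 ± 0.37 (adjusted p = 0.00929). Six2 had 26.2, 22.2 and 10.2 TPM in control XY and 6.11, 5.75 and 3.90 TPM in Dfo XY, a difference of -1.63 ± 0.33 (adjusted p = 0.00630). In both, replicate 3 was the lowest library of its group. Eya4 was 0.93 ± 0.22 lower on the log2 scale (adjusted p = 0.0138), a call that ended without control XY replicate 1 or 2. Without the Xist-holding libraries 1 gene of this list was called, Eya1 at -2.45 (adjusted p = 0.0124), while Six2 had -1.97 (adjusted p = 0.0534) and Eya4 -1.08 (adjusted p = 0.105). With replicates 1 and 2 averaged none was called, and the differences were -1.72 for Eya1, -1.52 for Six2 and -0.90 for Eya4. The median log2 difference over the 8 was -0.45, beside -0.17 over all genes. Markers of mesenchyme (3 of 8) and mesonephros (2 of 8) were lower in the same comparison, where 15.5% of all genes were called. The part of these cells in the values of this list was not tested.

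Cbx2 (ENSMUSG00000025577.7, chr11:119022962-119031270, plus strand) encodes a chromodomain subunit of Polycomb repressive complex 1. It had 28.8, 33.2 and 38.7 TPM in control XY and 23.3, 24.1 and 23.7 TPM in Dfo XY. The 3 Dfo libraries lay within 1 TPM of each other and all below the controls. The log2 difference was -0.47 ± 0.14 (adjusted p = 0.0443). This was the least stable of the 5 calls: it ended with the replicate number as a block (adjusted p = 0.0512), under each of 3 other scalings (0.0601 to 0.103), without the filter on low values (0.0605) and in 7 of the 12 fits that left out a library (up to 0.152). Those 7 were the fits without control XY replicate 2 or 3, any of the Dfo XY libraries or either cultured XX library. Without both Xist-holding libraries the difference was -0.47 with an adjusted p of 0.290, and with replicates 1 and 2 averaged it was -0.53 with an adjusted p of 0.149.

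Other Polycomb genes moved in both directions: of 15, 1 was higher and 5 were lower, with a median log2 difference of -0.10. Rybp, a subunit of the variant complexes that lack CBX proteins, had 32.5, 33.3 and 39.0 TPM in control XY and 49.9, 49.1 and 52.1 TPM in Dfo XY, and was 0.52 ± 0.11 higher on the log2 scale (adjusted p = 0.00749). Bmi1 (-0.44 ± 0.12, adjusted p = 0.0242), Phc1 (-0.38 ± 0.09, adjusted p = 0.0146) and Ring1 (-0.66 ± 0.19, adjusted p = 0.0361) encode subunits of the complex that CBX2 joins. With median-of-ratios scaling 2 genes of this list were higher and none was lower, so the lower calls depended on the scaling. The call of Phc1 also ended without control XY replicate 1 or 2, that of Bmi1 without either of these or Dfo XY replicate 1 or 3, and that of Ring1 without control XY replicate 2 or 3 or Dfo XY replicate 1 or 2. Without the Xist-holding libraries none of the list was called, and the differences were 0.57 for Rybp, -0.53 for Bmi1, -0.43 for Phc1 and -0.54 for Ring1. With replicates 1 and 2 averaged they were 0.49, -0.44, -0.37 and -0.68, and none of these 4 was called.

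Cited2 (ENSMUSG00000039910.10, chr10:17723218-17725674, plus strand) encodes a transcriptional partner of CBP and p300 that also competes with HIF1A for them and is itself a known target of HIF. It had 92.3, 97.0 and 58.1 TPM in control XY and 217, 232 and 114 TPM in Dfo XY. In each group replicate 3 was lower than replicates 1 and 2, and the lowest Dfo library lay above the highest control. The log2 difference was 1.14 ± 0.25 (adjusted p = 0.00929), and it was called without each of the 12 libraries in turn (0.91 to 1.47). Between libraries of the same number it was 1.22, 1.25 and 0.96. Dfo replicate 3 against all 3 controls gave 0.50 with an adjusted p of 0.369, and replicates 1 and 2 averaged gave 1.10 with an adjusted p of 0.0602. Of 8 other genes of this list, 1 was called: Crebbp, which encodes CBP, was 0.28 ± 0.08 higher on the log2 scale (adjusted p = 0.0322), a call that ended without any of the control XY libraries and without Dfo XY replicate 1 or 2. Crebbp had 0.23 without both Xist-holding libraries and 0.27 with replicates 1 and 2 averaged, not called in either. Hif1a, whose protein level rather than its RNA is controlled by iron-dependent hydroxylation, had 149.9, 155 and 156 TPM in control XY and 128, 135 and 139 TPM in Dfo XY and was not called.

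Igf1r (ENSMUSG00000005533.10, chr7:67952827-68233668, plus strand) had 39.1, 35.9 and 35.3 TPM in control XY and 49.2, 50.4 and 59.7 TPM in Dfo XY. Insr (ENSMUSG00000005534.10, chr8:3122061-3279617, minus strand) had 18.9, 17.8 and 21.7 TPM in control XY and 30.2, 28.3 and 31.9 TPM in Dfo XY. Both encode receptor tyrosine kinases of the insulin family, and for both every Dfo library lay above every control. The log2 differences were 0.51 ± 0.12 for Igf1r (adjusted p = 0.0108) and 0.61 ± 0.15 for Insr (adjusted p = 0.0187). Igf1r was called without each of the 12 libraries in turn, and it was the 1 gene of the 9 still called without both Xist-holding libraries (0.69, adjusted p = 0.0393). Insr had a similar value there, 0.69, with an adjusted p of 0.143. The Insr call also ended in the fits lacking control XY replicate 1 or 2 (adjusted p = 0.0646 and 0.0763) and in those lacking Dfo XY replicate 1 or 3 (adjusted p = 0.0591 and 0.0528). With replicates 1 and 2 averaged the difference was 0.57 for Igf1r (adjusted p = 0.0644) and 0.59 for Insr (adjusted p = 0.142). The log2 ratio of Igf1r to Insr was 0.89 ± 0.18 (SD, n = 3) in control XY and 0.79 ± 0.10 (SD, n = 3) in Dfo XY (exact two-sided permutation p = 0.6), so a change in the balance of the receptors was not detected. The difference in that ratio was -0.093, and it was -0.17 with quantile normalization, -0.0035 without the Xist-holding libraries and -0.020 with replicates 1 and 2 averaged.

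The ligand genes and the signalling genes around the receptors did not all follow them. Of 23 other genes of insulin and IGF signalling, 22 were tested, and 4 were higher and 4 were lower with Dfo. Insrr, the third receptor gene of the family, was at most 0.42 TPM in any library. Igf1, which encodes a ligand of IGF1R, had 28.6, 34.0 and 44.0 TPM in control XY and 19.9, 17.2 and 19.1 TPM in Dfo XY, a log2 difference of -0.87 ± 0.15 (adjusted p = 0.00255). Igf2, the other IGF gene of the list, stood far higher and was not called. It had 876, 870 and 708 TPM in control XY and 769, 716 and 554 TPM in Dfo XY. Igfbp4, which encodes a binding protein that holds IGFs away from the receptor, was 0.90 ± 0.10 lower (adjusted p = 5.95e-05), from 452, 450 and 498 TPM to 269, 238 and 241 TPM. Igfbp2, another IGF-binding protein gene, went the other way, with 82.1, 91.2 and 114 TPM in control XY and 262, 251 and 137 TPM in Dfo XY, 1.12 ± 0.22 higher on the log2 scale (adjusted p = 0.00524). Its call ended without the Xist-holding libraries (0.52, adjusted p = 0.237) and with replicates 1 and 2 averaged (0.91, adjusted p = 0.0799). Irs2, an adaptor that docks on both receptors, had 32.7, 33.1 and 33.6 TPM in control XY and 57.4, 52.9 and 55.0 TPM in Dfo XY, 0.72 ± 0.11 higher on the log2 scale (adjusted p = 0.000962). Foxo3, a transcription factor that insulin signalling keeps out of the nucleus, was 1.10 ± 0.12 higher (adjusted p = 7.65e-05). In none of the 5 called genes named here did Dfo and control libraries overlap. They were named for their calls or after their values were seen, and the share of all genes without overlap was not counted. Igfbp4, Irs2 and Foxo3 stayed called without the Xist-holding libraries, at -0.95, 0.72 and 0.84, and with replicates 1 and 2 averaged, at -0.94, 0.71 and 1.05. Igf1 was called with replicates 1 and 2 averaged (-0.94, adjusted p = 0.0166). It lost its call without the Xist-holding libraries (-0.84, adjusted p = 0.0688), and in that fit 2 genes of the list were higher and 1 was lower.

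**Figure D3:**
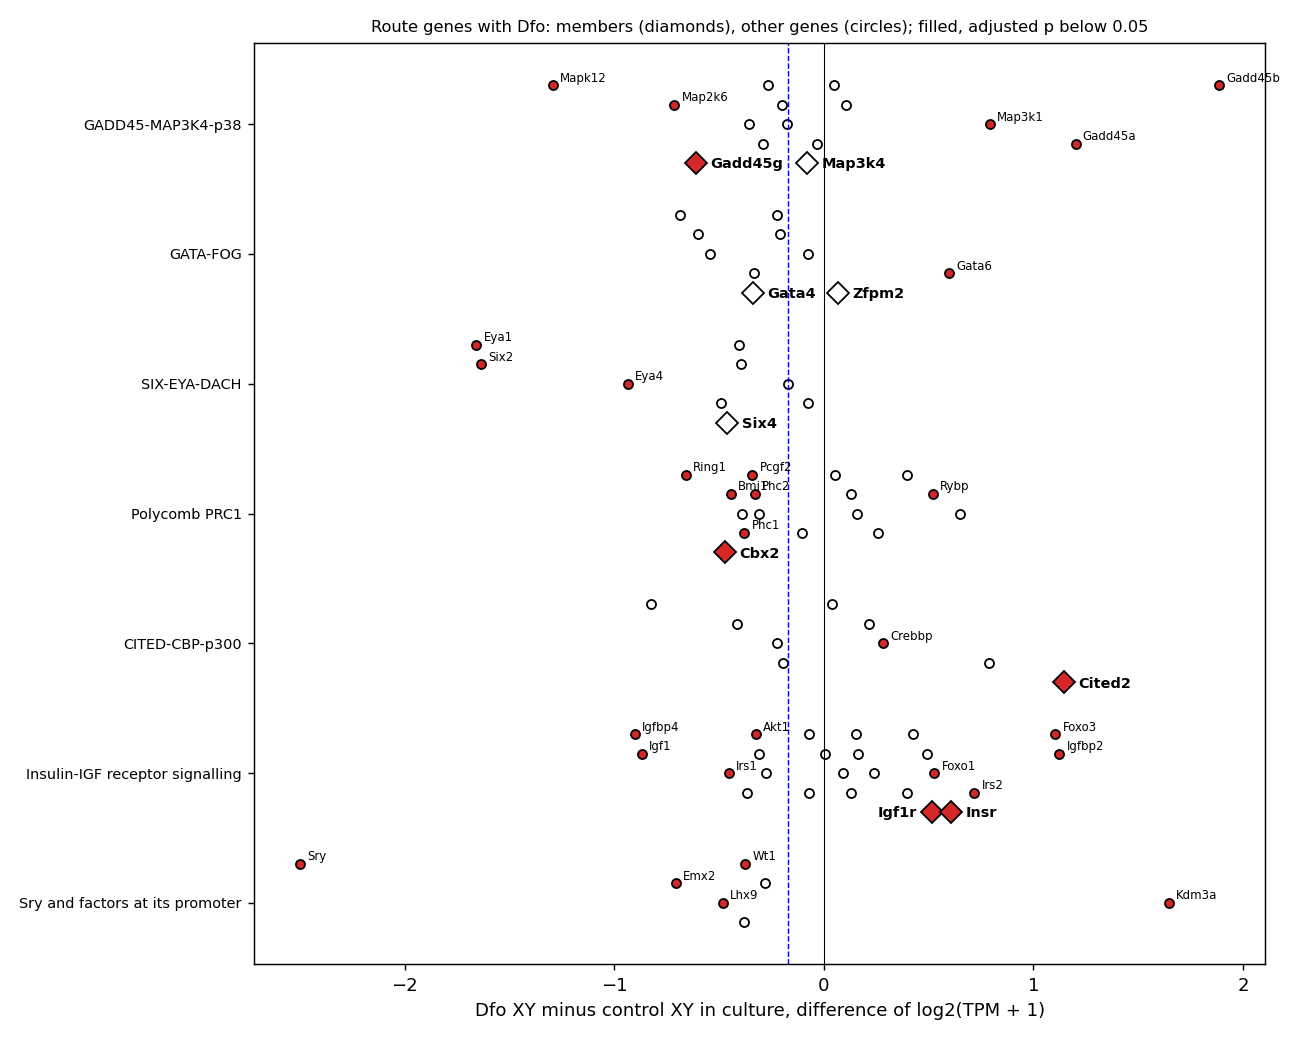
Log2 difference of TPM + 1 between Dfo XY and control XY (horizontal axis) for the 9 genes (diamonds) and the other tested genes of their routes (circles), by route; filled symbols have an adjusted p below 0.05 and are named, solid and dashed vertical lines mark 0 and the median of all genes, -0.17. The GADD45 and insulin routes hold filled symbols on both sides of 0, and the filled symbols of the Six4 route lie below it.

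Of a list of 7 genes made up of Sry, regulators known to act on it and its target Sox9, 5 were called, 1 higher and 4 lower. Over all genes 15.5% were called, and the list was chosen with earlier results of these data known. Kdm3a, the iron-dependent demethylase, rose by 1.65 ± 0.10 (adjusted p = 8.38e-07), and Sry had a log2 difference of -2.50 ± 0.33 (adjusted p = 0.000359). Emx2 (-0.71 ± 0.15, adjusted p = 0.00865), Wt1 (-0.38 ± 0.08, adjusted p = 0.00555) and Lhx9 (-0.48 ± 0.15, adjusted p = 0.0496) encode factors that build the bipotential gonad. The Lhx9 call ended in each of the 12 fits that left out a library. Nr5a1 (-0.38 ± 0.14, adjusted p = 0.0778) and Sox9 (-0.28 ± 0.14, adjusted p = 0.216) were not called. Without the Xist-holding libraries 2 of these 7 were called, Kdm3a at 1.66 and Sry at -2.30, while Emx2 had -0.61 (adjusted p = 0.175) and Wt1 -0.39 (adjusted p = 0.0680). With replicates 1 and 2 averaged Kdm3a (1.62), Sry (-2.65) and Emx2 (-0.78) were called and Wt1 was not (-0.37, adjusted p = 0.0658). Lhx9, Nr5a1 and Sox9 were called in neither, with differences of -0.40, -0.35 and -0.45 in the first setting and -0.55, -0.43 and -0.24 in the second. Over 84 other genes of the routes, 81 were tested and 11 were higher and 18 lower, beside 803 and 1695 over all genes. The split of the route genes became 15 and 7 with median-of-ratios scaling. It was 14 and 8 when the 50 most abundant genes were left out, and 12 and 11 with quantile normalization. It was 5 and 4 without the Xist-holding libraries and 6 and 4 with replicates 1 and 2 averaged.

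The signs of the log2 differences held in more settings than the calls did, but in most settings this was fixed in advance. Gadd45g, Gata4, Six4 and Cbx2 had negative and Cited2, Igf1r and Insr positive log2 differences in all 21 other settings tried. In some of these settings the difference of a gene cannot change, so its sign there was fixed in advance. Those are the fits without the filter, with the replicate block, with only the compared groups, or without a cultured XX or E11.5 library. Map3k4 and Zfpm2, both near 0, changed sign in some. Calls numbered 5 as reported and 4 with the replicate block. They numbered 1 without both Xist-holding libraries (Igf1r) and 1 with replicates 1 and 2 averaged (Gadd45g). Over all genes, the calls in these last 2 settings were 858 and 833, beside 2498.

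**Figure D4:**
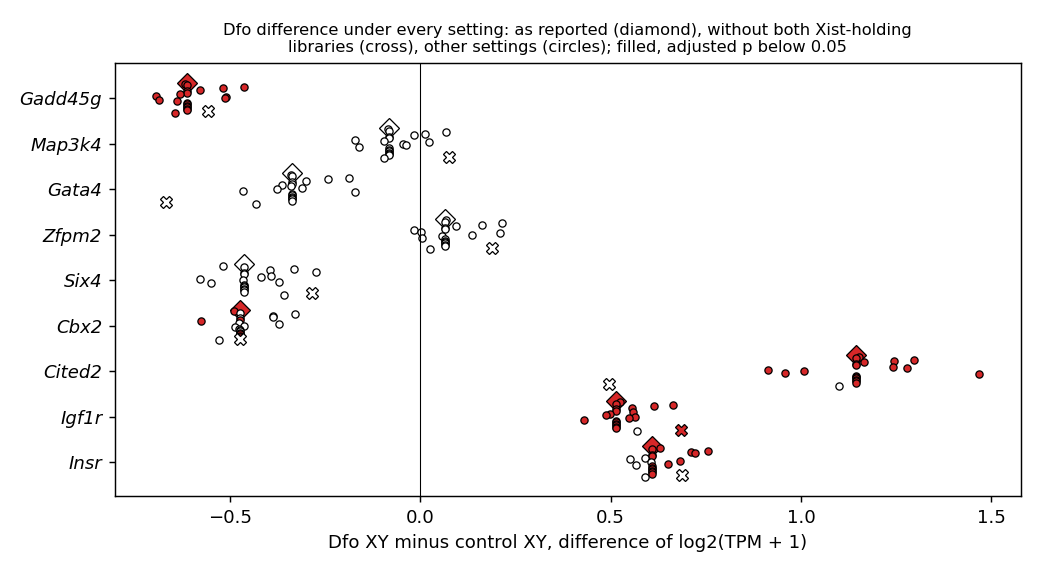
Log2 difference of TPM + 1 between Dfo XY and control XY (horizontal axis) for each of the 9 genes under every setting tried: as reported (diamonds), without both Xist-holding Dfo libraries (crosses) and the other settings (circles); filled symbols have an adjusted p below 0.05. For Cited2 the cross lies at 0.50, beside 1.14 as reported, and for Igf1r the cross is filled.

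The comparison of control XY with control XX in culture asked which of the genes differ between the sexes without Dfo. It shares its control XY libraries with the Dfo comparison, so these comparisons are not independent. Of the 9 genes, 5 were lower in XY and none was higher, where 25.2% of all genes were called, 479 higher and 3585 lower. The median log2 difference was -0.56 over the 9 and -0.22 over all genes. Gata4 had 289.9 and 295 TPM in cultured XX (-0.96 ± 0.17, adjusted p = 0.00278). Zfpm2 had 90.4 and 89.9 TPM in XX (-0.83 ± 0.15, adjusted p = 0.00266). Gadd45g had 207 and 177 TPM (-0.69 ± 0.14, adjusted p = 0.00492), Map3k4 had 63.3 and 47.3 TPM (-0.57 ± 0.16, adjusted p = 0.0191) and Igf1r had 54.2 and 53.9 TPM (-0.54 ± 0.13, adjusted p = 0.0106). For these 5 every XX library lay above every control XY library, but the same held for Cbx2, Cited2 and Insr, which were not called. For Six4 every XX library lay below every control XY library. The share of all genes without overlap was not counted.

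Scaling moved this comparison more than any other. Median-of-ratios scaling shifted the median of all genes from -0.22 to 0.07, cut the calls over all genes from 4064 to 1028 (529 higher, 499 lower) and left 1 of the 9, Zfpm2 (-0.50, adjusted p = 0.0380). With the 50 most abundant genes left out, Gata4 and Zfpm2 were called, among 1285 genes (523 higher, 762 lower). With quantile normalization none of the 9 was, among 614 genes (291 higher, 323 lower). Each of the 9 kept its sign in all 3, and relative to the median of all genes Gata4 stood at -0.74 as reported and -0.70 with median-of-ratios scaling. Without cultured XX replicate 1, Gata4 and Zfpm2 were the 2 genes called. Map3k4 was also not called without control XY replicate 1 or 2, nor Igf1r without cultured XX replicate 2. Markers of several cell types moved in the same comparison. The summed gonadal somatic markers were 1566 to 1631 TPM in cultured XX beside 822 to 1023 in control XY, with 6 of 7 called lower in XY. Mesenchymal markers had 1272 to 1356 TPM in XX beside 872 to 933 in XY, with 4 of 8 lower in XY. The other lists leaned towards XY. Markers of neural crest and neurons had 45.7 to 45.8 TPM in XX and 109 to 176 in XY (6 of 8 higher in XY), mesonephric markers 45.4 to 72.4 and 83.0 to 93.7 (4 of 8), and erythroid markers 83.4 to 123 and 228 to 1790 TPM (3 of 8). Macrophage markers had 33.8 to 48.0 TPM in XX and 50.6 to 96.9 in XY (2 of 8). Endothelial sums overlapped, with 2 of 8 markers higher in XY, and no germ cell marker was called. The part of these cells in the differences was not tested.

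Six4 was the 1 gene of the 9 with a positive difference, 6.86 and 5.68 TPM in cultured XX and 7.58 to 10.1 TPM in control XY (0.48 ± 0.23, adjusted p = 0.159). The other 3 did not pass: Cbx2 had 42.4 and 48.4 TPM in XX (adjusted p = 0.0694), Cited2 had 106 and 133 TPM (adjusted p = 0.170) and Insr had 27.7 and 23.5 TPM (adjusted p = 0.126). Of the other route genes, 9 were higher and 30 lower in XY, and 10 and 10 with median-of-ratios scaling. Six2 was 2.002 ± 0.37 higher in control XY (adjusted p = 0.00321), Gata6 was 0.91 ± 0.13 lower (adjusted p = 0.000895) and Map3k1 was 0.81 ± 0.11 lower (adjusted p = 0.000895). The call of Map3k1 ended with quantile normalization (adjusted p = 0.0553).

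**Figure D5:**
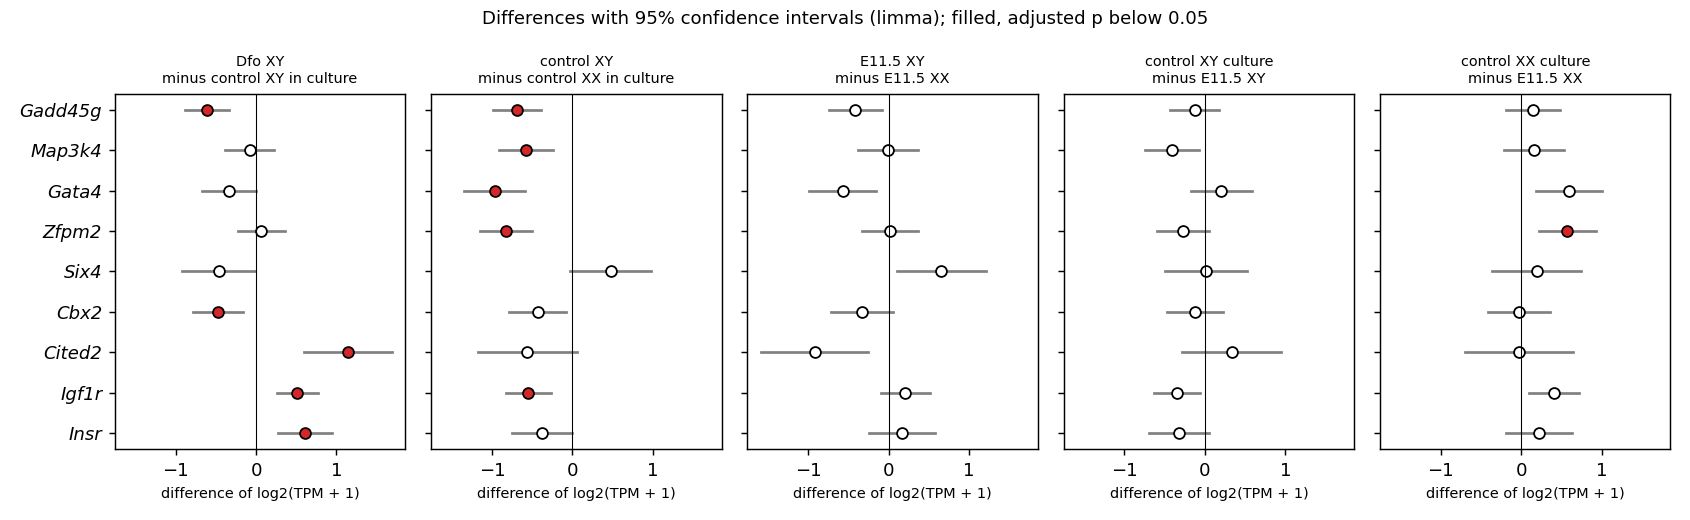
Differences of log2(TPM + 1) for the 9 genes in 5 comparisons of groups, with 95% confidence intervals from limma; filled points have an adjusted p below 0.05, and the comparisons share libraries. There are 5 filled points in the first panel and 5 in the second, none in the third and the fourth, and 1, Zfpm2, in the last.

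At E11.5, none of the 9 genes was called between XY and XX, where 2.29% of all genes were (176 higher, 194 lower). At an unadjusted p below 0.05, 4 of the 9 passed, beside 19.6% of all genes. The widest difference was in Cited2, with 69.3 and 58.6 TPM in XY and 108 and 136 TPM in XX (-0.92 ± 0.31, adjusted p = 0.124), and it was called without Dfo XY replicate 3 in the fit (adjusted p = 0.0486). Gata4 had 148 and 113 TPM in XY and 228 and 164 TPM in XX (-0.57 ± 0.19, adjusted p = 0.123). Six4 again leaned the other way, with 9.50 and 8.49 TPM in XY and 6.59 and 4.29 TPM in XX (0.66 ± 0.26, adjusted p = 0.180). In all 3, and in Gadd45g, the XY and XX libraries did not overlap, but the share of all genes without overlap was not counted. With 2 against 2 libraries the intervals were wide, from -1.59 to -0.25 for Cited2. Gadd45g had 143 and 117 TPM in XY and 169.9 and 175 TPM in XX (adjusted p = 0.159). Map3k4 and Zfpm2 overlapped between the sexes.

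Control XY gonads in culture were set beside E11.5 XY gonads. None of the 9 genes was called and 5.66% of all genes were; 2 of the 9 had an unadjusted p below 0.05, beside 23.5% of all genes. Map3k4 was lower in culture in every library, at 32.1 to 42.2 TPM beside 49.6 and 47.8 TPM (-0.41 ± 0.16, adjusted p = 0.140). Igf1r had 42.1 and 52.6 TPM at E11.5 and 35.3 to 39.1 TPM in culture (-0.35 ± 0.13, adjusted p = 0.131). For Six4 the log2 difference was 0.01, with a 95% interval of -0.49 to 0.52. In XX, 1 of the 9 was called, Zfpm2 at 0.57 ± 0.16 higher in culture (adjusted p = 0.0462), from 63.8 and 56.9 TPM at E11.5, where 9.07% of all genes were called. That call ended in every other setting except the pseudocount of 0.1 and the fits that lacked replicate 3 of control XY or of Dfo XY, or an E11.5 XY library. Gata4 was 0.59 ± 0.19 higher in cultured XX (adjusted p = 0.0731), and it was called without Dfo XY replicate 3 (0.0350) or E11.5 XX replicate 1 (0.0391).

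The difference between the sexes in culture was then compared with that at E11.5. None of the 9 genes was called in this interaction, 1.33% of all genes were, and 3 of the 9 had an unadjusted p below 0.05, beside 20.8% of all genes. The largest values were for Zfpm2 (-0.85 ± 0.22, adjusted p = 0.0718) and Igf1r (-0.75 ± 0.19, adjusted p = 0.0687). Zfpm2 was called without control XY replicate 3 (-0.99, adjusted p = 0.0240) and Igf1r without Dfo XY replicate 3 (adjusted p = 0.0486).

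Ordered by mean, Gadd45g ran from cultured XX through E11.5 XX, E11.5 XY and control XY to Dfo XY, and of neighbours in that order only E11.5 XY and control XY overlapped. Cbx2 ran from E11.5 XX at 46.6 ± 10.7 TPM (SD, n = 2) to Dfo XY at 23.7 ± 0.41 TPM (SD, n = 3), and Dfo XY was apart from every other group. Insr was highest in Dfo XY, 30.1 ± 1.79 TPM (SD, n = 3), apart from cultured XX, and its other neighbours overlapped. Cited2 was highest in Dfo XY at 188 ± 64.3 TPM (SD, n = 3), but that group overlapped with E11.5 XX, at 122 ± 19.8 TPM (SD, n = 2). Igf1r had neighbours that overlapped throughout, from cultured XX at 54.0 ± 0.16 TPM (SD, n = 2) to control XY at 36.8 ± 2.02 TPM (SD, n = 3). Across the 12 libraries Cited2 ran from 58.1 to 232 TPM, and for Igf1r, the least variable of the 9, the highest value was 1.69 times the lowest.

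The genes whose profiles lay nearest were found by the root mean square difference between profiles of log2(TPM + 1) over the 12 libraries, each centred on its own mean, among 10507 genes. Nearest to Gadd45g was Bcat2, at 0.10, where Gadd45g itself had a root mean square spread of 0.48. Map3k4 had the closest match of the 9, Adam17 at 0.05, and Gata4 was nearest to Slc7a2 at 0.10. Zfpm2 was nearest to Uhrf1bp1l at 0.08, Cbx2 to Bend3 at 0.09, Insr to Bend4 at 0.10 and Igf1r to Hipk3 at 0.11, beside a spread of 0.24 for Igf1r. Cited2 had the largest distance to its nearest gene, Rhob at 0.26, but also the largest spread of its own, 0.61. Six4 was nearest to Gtf2h2 at 0.18 with a spread of 0.31. The second nearest genes were Ccdc91 for Gadd45g, Pds5b for Map3k4, Kctd14 for Gata4, Pdgfc for Zfpm2, Mthfsd for Six4, Pccb for Cbx2, Acot2 for Cited2, Rtn3 for Igf1r and Rapgef2 for Insr. The profiles share libraries and scaling, so these distances describe the present data.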

How the data were processed

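RNA-seq was made from NR5A1(+) cells with the SMART-Seq Stranded Kit, per the labels' protocols. The deposited values are TPM, 1 file per library. Tools named in the submitters' processing notes are STAR 2.7.10b, RSEM and R 4.1.2, with the mm10 build. The annotation, the filters and any use of strand in counting were not given in the sources used here. Depth is unknown, since TPM holds no number of reads, and no counting interval was computed.

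Groups came from the sample titles. Differences of log2(TPM + 1), a scale that understates changes of low genes, were tested with limma 3.58.1 (R 4.3.3), with 1 coefficient per group, a variance trend and all 12 libraries in 1 fit. Genes with at least 1 TPM in at least 2 libraries were kept (16133 of 24411), with Benjamini-Hochberg adjustment within each of 6 contrasts. The procedure was first tested on simulated data with independent libraries. That test did not copy the closeness of replicates 1 and 2 in the cultured XY groups, so it does not vouch for the p-values there. Ratios between genes were compared over libraries by exact two-sided permutation, with a pseudocount of 1. Positions and gene identifiers are those of GENCODE M21. In that annotation other genes overlap Insr (an antisense gene and a pseudogene), Map3k4 and Zfpm2, so reads there may not all belong to the named gene.

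The 9 genes, the route and marker lists and the tests were chosen with earlier results of these data known. Genes named are the 9, the list of Sry and factors at its promoter, up to 4 called genes of each other route list in the Dfo comparison by smallest adjusted p and up to 2 in each other comparison, and the 2 nearest profiles of each of the 9. Insrr, Igf2 and Igfbp2 were named besides, after their values were seen. The gene of 1 planned ratio is not reported here. Alternatives were a pseudocount of 0.1, no filter, 3 other scalings, a replicate block, a fit of only the groups compared, leaving out each library, leaving out both Xist-holding libraries and averaging replicates 1 and 2. For the ratios, quantile normalization and the averaging were added after seeing the data.

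To see whether replicate numbers pair control XY with Dfo XY libraries, deviations from the group means were correlated across genes. Same-numbered libraries had r of 0.21, 0.12 and 0.34, all above the 0.1 taken as pairing. Crosswise, r was 0.14 between control 1 and Dfo 2 and 0.18 between control 2 and Dfo 1, which also passed 0.1. The correlations thus set replicate 3 apart but do not show that 1 pairs with 1 and 2 with 2.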

Additional observations from a re-analysis of the deposited data

How the results depend on the processing

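The Dfo comparison called 5 of the 9 genes as reported, 3 to 5 without each library in turn, 1 without both Xist-holding libraries and 1 with replicates 1 and 2 averaged. The 3 fits with 3 calls lacked control XY replicate 2 or Dfo XY replicate 1 or 3. Between cultured control XY and XX the 5 calls became 1 with median-of-ratios scaling, 2 with the 50 most abundant genes left out, 0 with quantile normalization and 2 to 6 without each library, the 2 without cultured XX replicate 1. At E11.5 the count between the sexes was 0 to 1 without each library. For cultured against E11.5 XX the 1 call became 0 with no filter, with each of the 3 other scalings, with the replicate block, with only the groups compared in the fit, without both Xist-holding libraries and with replicates averaged, and it was 0 to 2 without each library. In the comparison of sex differences it was 0 to 1. In the replicate block of control XY and Dfo XY, Cbx2 lost its call (adjusted p = 0.0512) and no other of the 9 did. The correlations do not settle how replicates 1 and 2 of these groups pair. In the other comparisons the libraries share only a number, and the block gave 6 calls between cultured XY and XX, with Cbx2 added.

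Reversed values were all near 0 and not called. With median-of-ratios scaling they were 0.067 for Map3k4 with Dfo, 0.040 for Map3k4 between the sexes at E11.5, -0.037 for Gadd45g and -0.022 for Map3k4 between cultured and E11.5 XX, and 0.0086 for Gadd45g, 0.065 for Six4 and 0.18 for Cbx2 in the comparison of sex differences. With the 50 most abundant genes left out they were 0.013 and 0.035 for Map3k4 in the first 2 of these, and 0.019 for Six4 and 0.12 for Cbx2 in the last. With quantile normalization they were 0.092 for Map3k4 at E11.5, -0.041 for Gadd45g and -0.078 for Map3k4 between cultured and E11.5 XX, and 0.024 for Gadd45g and 0.20 for Cbx2 in the last. Without both Xist-holding libraries Map3k4 was 0.076 with Dfo, and with replicates averaged Six4 was -0.045 between cultured and E11.5 XY. Without each library in turn, values that crossed 0 with Dfo ran from -0.17 to 0.023 for Map3k4 and -0.015 to 0.21 for Zfpm2. Between the sexes at E11.5 they ran from -0.12 to 0.11 for Map3k4, -0.12 to 0.16 for Zfpm2 and -0.088 to 0.42 for Insr. Between cultured and E11.5 XY they ran from -0.27 to 0.016 for Gadd45g and -0.060 to 0.13 for Six4. Between cultured and E11.5 XX they ran from -0.048 to 0.37 for Map3k4, -0.067 to 0.45 for Six4, -0.25 to 0.21 for Cbx2, -0.19 to 0.13 for Cited2 and -0.030 to 0.48 for Insr. In the comparison of sex differences they ran from -0.44 to 0.080 for Six4 and -0.33 to 0.13 for Cbx2. The difference in the ratio of Gata4 to Zfpm2 moved from -0.40 to -0.86 without both Xist-holding libraries. The cause of these changes was not tested. With 2 or 3 libraries a group and unknown depth, the intervals set what could be seen.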
